A study of Mus musculus with 8 samples.

Results

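The UDP-glucuronosyltransferases (Ugt), the cytosolic sulfotransferases (Sult) and the soluble glutathione S-transferases (Gst) are the main enzyme families of phase II conjugation in liver. Their members were taken as every probe whose gene symbol in the array annotation begins with Ugt1, Ugt2, Ugt3, Sult, Gsta, Gstm, Gstp, Gstt, Gsto or Gstk. This rule used names only, but the families were proposed with earlier results of these data known, so their counts only describe these arrays. It gave 65 of 25697 probes, which stand for 47 of 16593 named genes: 15 Ugt, 12 Sult and 20 Gst genes. The study compared total liver RNA of Cic-L-/- mice, named for the loss of the long form (Cic-L) of the transcriptional repressor capicua, with that of wildtype mice. Both groups were C57BL animals aged 18 days with 4 samples each, and every sample was hybridised to its own single-colour bead array. The sources used here do not state how the allele was made, the sex of the animals or whether each sample is a separate animal. The p-values therefore speak only of the spread among these arrays, part of which may be technical.

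Conjugation joins a polar group to a lipophilic molecule so that it can be carried into bile or urine. Glucuronosyltransferases sit in the endoplasmic reticulum and transfer glucuronic acid from UDP-glucuronic acid to bilirubin, steroids, bile acids and drugs. Sulfotransferases use the activated sulfate PAPS, and glutathione S-transferases couple glutathione to electrophiles, including products of lipid peroxidation. In liver these genes are known to respond to the receptors CAR, PXR and AHR and to the oxidative stress factor NRF2, and many of them change between the suckling period and adult life.

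Of the 47 genes, 29 were above background on at least 4 of the 8 arrays and could be tested: 9 Ugt, 5 Sult and 15 Gst genes. By limma with Benjamini-Hochberg adjustment over all 8255 tested features, 6 of the 29 were lower in Cic-L-/- liver (Gstt3, Ugt2a3, Sult2a8, Gstm2, Gsto1 and Gstk1) and 1 was higher (Sult1c2), while 22 did not pass. Over all tested features 7.39% were called, 2.9% being lower and 4.49% higher. A call with at least a 2-fold decrease was made for 4 of the 29 (Gstt3, Ugt2a3, Sult2a8 and Gstm2) and for 1.08% of all features. By family, 4 of 15 tested Gst genes fell, 1 of 9 Ugt genes fell, and of 5 Sult genes 1 fell and 1 rose. All 7 called genes were above background on all 8 arrays, and in each the 4 values of one group lay apart from the 4 of the other. Such separation was found for 11 of the 29 (9 lower, 2 higher), against 15.1% of all tested features (6.55% lower, 8.53% higher). At an unadjusted p under 0.05 there were 13 of 29 (10 lower, 3 higher), against 22.5% of all features.

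The families did not move as blocks. The median log2 difference, Cic-L-/- minus wildtype, was -0.07 over the 29 genes (range -1.70 to 0.82), against 0.00 over all features. It was -0.34 for Ugt, with 7 of 9 signs negative, 0.13 for Sult, with 2 of 5 negative, and 0.01 for Gst, with 7 of 15 negative. Centring each array on its median in place of quantile normalisation moved the median of all features by 0.17 and the calls from 371 higher and 239 lower to 706 higher and 131 lower. On that scale the family medians were -0.18, 0.33 and 0.07, and that of the 29 genes was 0.07. The number of called members was 4 without Cic-L-/- replicates 1 and 2 and wildtype replicate 2, each left out by itself, and the count over all features was then 343, 341 and 372 in place of 610. It was 375 and 380 without wildtype replicate 1 and without wildtype replicate 4. Gstt3, Gstm2, Sult2a8 and Sult1c2 were called under each of the 21 alternatives. Among these, no background correction and the deposited log2 table gave equal results and are in effect the same fit. The control rows used as background had a higher median signal in Cic-L-/- samples (138.5 to 141.9) than in wildtype samples (114.2 to 136.3). Of the 7 calls, 6 were kept without background correction (Ugt2a3 was lost).

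**Figure D1:**
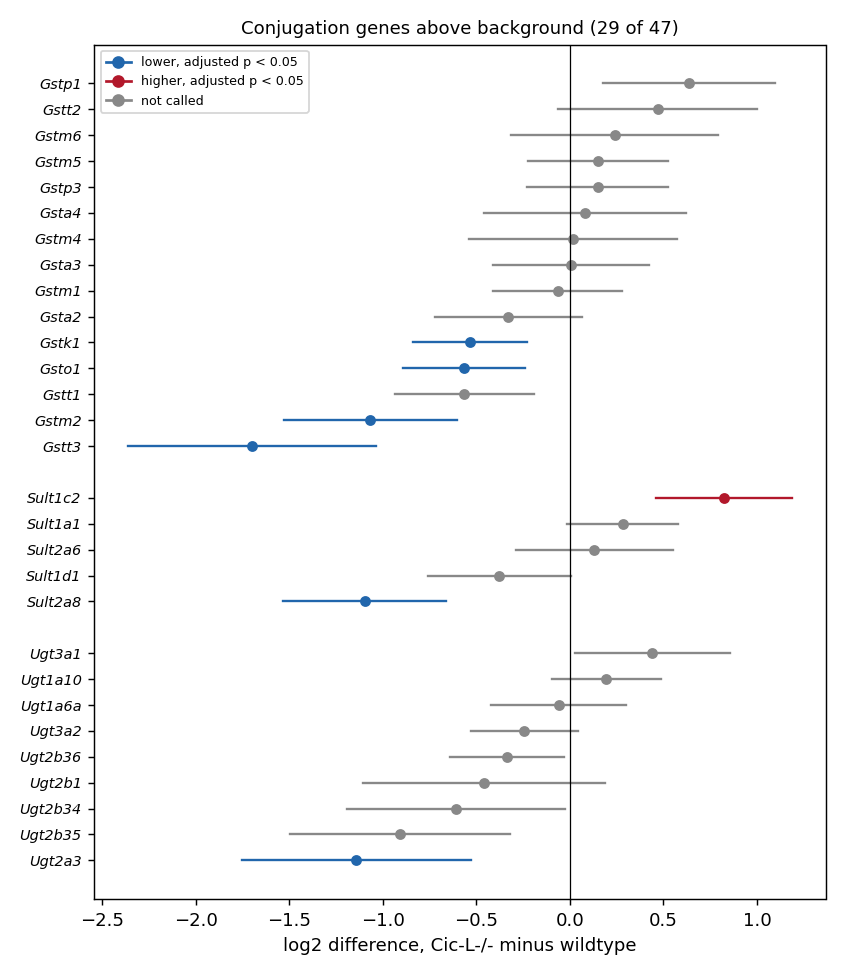
Log2 difference in signal (Cic-L-/- minus wildtype) of the 29 conjugation genes above background, grouped by family, with 95% confidence intervals from limma (n = 4 per group). Blue marks the 6 genes called lower, red the 1 called higher and grey the 22 not called; the differences run from -1.70 for Gstt3 to 0.82 for Sult1c2.

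Among the glutathione S-transferases the largest difference was that of Gstt3, a theta-class enzyme of the type known to act on small halogenated compounds. Its log2 signal was 7.47, 7.82, 8.52 and 8.36 on the 4 Cic-L-/- arrays and 9.79, 9.87, 8.94 and 10.37 on the 4 wildtype arrays, in the order of the replicate numbers. The groups did not overlap, and the arrays of both groups were spread over more than 1 log2 unit. Gstt3 was 3.25-fold lower (log2 difference -1.70 ± 0.30 SE, adjusted p = 0.0072). The window around its start site (250 bases before to 50 after, RefSeq, build GRCm38.p6, minus strand, chr10:75781365-75781664) is shown because it belongs to the gene with the largest fall. Motifs that were searched for would stand in capitals, and it holds none of them.
Gstt3: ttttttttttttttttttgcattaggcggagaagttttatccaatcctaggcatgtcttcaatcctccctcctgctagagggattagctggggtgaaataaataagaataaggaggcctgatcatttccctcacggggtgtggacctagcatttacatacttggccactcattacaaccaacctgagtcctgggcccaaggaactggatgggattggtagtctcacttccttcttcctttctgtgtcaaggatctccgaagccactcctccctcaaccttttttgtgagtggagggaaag

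The other tested theta-class genes, its neighbours, had opposite signs and did not pass. Gstt1, which metabolises dihalomethanes, read 8.89, 8.88, 8.60 and 9.31 on Cic-L-/- arrays and 9.62, 9.56, 9.42 and 9.34 on wildtype arrays. All 4 Cic-L-/- values lay below all wildtype values, yet the difference of -0.56 ± 0.17 (SE) did not pass (adjusted p = 0.0683). It passed under 6 of its 21 alternatives, among them without background correction (-0.47, adjusted p = 0.0303), with array weights (-0.62, adjusted p = 0.0358) and without Cic-L-/- replicate 4, the highest of its group (-0.69, adjusted p = 0.0243). Over all of them the adjusted p ran from 0.0243 to 0.234. Gstt2 differed by 0.47 ± 0.24 with overlapping groups (adjusted p = 0.283).

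Gstm2, a mu-class enzyme, read 11.04, 11.07, 11.15 and 11.02 on the Cic-L-/- arrays and 12.41, 12.20, 11.46 and 12.47 on the wildtype arrays. The Cic-L-/- arrays lay close together, while wildtype replicate 3 stood below the other wildtype arrays. The gene was 2.09-fold lower (-1.07 ± 0.21 SE, adjusted p = 0.0118). It was measured by 3 probes, with differences of -1.14, -1.07 and -0.99, and all 3 passed when every kept probe was tested by itself (6.2% of 10300 probes did). The 4 other tested mu-class genes, Gstm1, Gstm4, Gstm5 and Gstm6, differed by -0.07 to 0.24 and did not pass (adjusted p of 0.626 or more). Gstm4 was above background on only 2 Cic-L-/- and 3 wildtype arrays, and the other kept Gstm6 probe differed by -0.38. The genes of this class are close in sequence, and whether a probe also binds the RNA of a neighbour is not known here.

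Gsto1 and Gstk1 showed smaller falls. Gsto1, an omega-class enzyme that reduces dehydroascorbate and methylated arsenic, read 9.84, 9.87, 9.84 and 10.10 on Cic-L-/- arrays against 10.22, 10.54, 10.47 and 10.67 on wildtype arrays. That was a 1.48-fold decrease (-0.56 ± 0.15 SE, adjusted p = 0.0422). Gstk1, the kappa-class enzyme of mitochondria and peroxisomes, read 11.89, 11.87, 11.91 and 11.98 against 12.24, 12.38, 12.55 and 12.60, a 1.45-fold decrease (-0.53 ± 0.14 SE, adjusted p = 0.0408). Neither pair of groups overlapped, but both calls were close to the threshold. The Gstk1 call ended without any 1 array other than wildtype replicate 1 and the Gsto1 call without each array except Cic-L-/- replicate 4 and wildtype replicate 1 (adjusted p over all alternatives 0.00496 to 0.108 and 0.00958 to 0.111).

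The alpha and pi classes gave no call. Gsta3, the alpha-class enzyme known for detoxifying aflatoxin epoxide in mouse liver, read 13.70, 13.14, 13.45 and 13.54 on Cic-L-/- arrays and 13.75, 13.21, 13.70 and 13.15 on wildtype arrays. The groups overlapped and the difference was 0.01, with a 95% interval from -0.41 to 0.42. Gsta4, which conjugates the lipid peroxidation product 4-hydroxynonenal, differed by 0.08 (interval -0.46 to 0.62). Gsta2 differed by -0.33 (interval -0.72 to 0.07) and was above background on only 1 Cic-L-/- and 3 wildtype arrays. Gstp1, of the pi class, read 10.96, 11.26, 10.91 and 10.27 on Cic-L-/- arrays and 10.15, 9.95, 10.43 and 10.33 on wildtype arrays. Its Cic-L-/- replicates 1, 2 and 3 lay above all wildtype arrays and its replicate 4 lay among them, and the difference of 0.64 ± 0.21 (SE) did not pass (adjusted p = 0.0939). Without Cic-L-/- replicate 4 it was 0.83 and passed (adjusted p = 0.0178), as it did with an intensity trend (0.0389) and with array weights (0.0408). Gstp3, another pi-class gene, read 11.09, 11.08, 11.17 and 11.69 against 10.90, 11.13, 11.21 and 11.21, with overlapping groups and a difference of 0.15 ± 0.17 (adjusted p = 0.664).

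In the sulfotransferase family the called genes went in opposite directions. Sult2a8, a hydroxysteroid sulfotransferase of mouse liver that acts on bile acids, read 10.11, 10.17, 9.79 and 10.53 on Cic-L-/- arrays and 11.04, 10.96, 11.34 and 11.63 on wildtype arrays. The lowest wildtype array stood 0.44 above the highest Cic-L-/- array. The gene was 2.14-fold lower (-1.10 ± 0.20 SE, adjusted p = 0.00777). Sult2a6, its nearest protein-coding neighbour and of the same subfamily, differed by 0.13 ± 0.19 (adjusted p = 0.741, 95% interval -0.29 to 0.55). Both lie on chromosome 7, as Cic does, at 280 and 281 places from it in the order of protein-coding genes.

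Sult1c2, of the phenol-type subfamily Sult1, was the 1 member called higher. It read 10.24, 10.32, 9.88 and 9.81 on Cic-L-/- arrays and 9.45, 9.24, 9.04 and 9.23 on wildtype arrays, without overlap. That was a 1.77-fold increase (0.82 ± 0.17 SE, adjusted p = 0.013). The window of the gene that rose (minus strand, chr17:53845909-53846208) is set beside a Sult2a8 window (minus strand, chr7:14438502-14438801), the gene of the family that fell. Capitals in the latter mark 2 copies of the nuclear receptor core AGGTCA, which begin at -164 and -90 relative to the start site, and the former holds none of the letters searched. The other RefSeq window of Sult2a8, at an upstream start, holds none of them either.
Sult1c2: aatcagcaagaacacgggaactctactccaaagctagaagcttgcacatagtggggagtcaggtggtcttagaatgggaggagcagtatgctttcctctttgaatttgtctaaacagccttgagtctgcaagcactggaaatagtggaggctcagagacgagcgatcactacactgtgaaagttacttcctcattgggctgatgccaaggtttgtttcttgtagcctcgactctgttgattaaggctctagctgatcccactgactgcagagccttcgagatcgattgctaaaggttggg
Sult2a8: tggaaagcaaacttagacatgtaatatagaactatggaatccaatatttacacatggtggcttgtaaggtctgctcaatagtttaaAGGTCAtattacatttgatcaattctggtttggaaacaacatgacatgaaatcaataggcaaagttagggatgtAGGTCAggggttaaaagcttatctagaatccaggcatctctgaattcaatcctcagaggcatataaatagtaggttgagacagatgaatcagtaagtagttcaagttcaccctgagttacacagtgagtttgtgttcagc

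The remaining tested sulfotransferases did not pass. Sult1a1, the phenol sulfotransferase with broad substrate range, read 13.31, 13.06, 13.29 and 13.33 on Cic-L-/- arrays and 12.99, 12.99, 12.87 and 13.01 on wildtype arrays. Its groups did not overlap, and the difference was small (0.28 ± 0.14 SE, adjusted p = 0.241, 95% interval -0.01 to 0.58). Sult1d1, which sulfates catecholamines in mouse, differed by -0.38 ± 0.17 with overlapping groups (adjusted p = 0.228). Its other probe differed by 0.10, so the direction rests on the choice of probe.

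In the glucuronosyltransferase family 5 of the 7 negative differences lay in subfamily 2. Ugt2a3, whose human form glucuronidates bile acids, read 6.03, 6.06, 6.23 and 5.61 on Cic-L-/- arrays and 6.54, 6.98, 6.94 and 8.04 on wildtype arrays. The groups did not overlap, and wildtype replicate 4 stood above the other wildtype arrays. Ugt2a3 was 2.21-fold lower (-1.14 ± 0.28 SE, adjusted p = 0.0311). Without background correction the difference shrank to -0.53 and the call ended (adjusted p = 0.0591; 0.0179 to 0.0714 over all alternatives). It also ended without a detection filter (adjusted p = 0.0666) and on leaving out any 1 array among Cic-L-/- replicates 1, 2 and 4 and wildtype replicates 2 and 3 (adjusted p = 0.0516 to 0.0714). Its other probe was above background on 1 array and differed by -0.05. The Ugt2a3 window (minus strand, chr5:87337146-87337445) is shown since it was the 1 called member with the HNF1 core GTTAAT, in capitals, at -54 and -47 relative to the start site.
Ugt2a3: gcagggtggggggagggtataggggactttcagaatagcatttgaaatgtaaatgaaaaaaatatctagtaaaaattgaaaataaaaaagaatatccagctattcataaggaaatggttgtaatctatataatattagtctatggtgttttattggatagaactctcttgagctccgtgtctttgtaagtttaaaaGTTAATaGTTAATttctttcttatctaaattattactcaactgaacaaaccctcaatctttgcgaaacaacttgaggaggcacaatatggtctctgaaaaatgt

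The 4 tested Ugt2b genes, whose products glucuronidate steroids, bile acids and drugs, all had negative differences, and none passed. Ugt2b35 read 8.61, 8.13, 8.32 and 7.60 on Cic-L-/- arrays and 9.21, 9.42, 8.32 and 9.35 on wildtype arrays. Wildtype replicate 3 lay among the Cic-L-/- values, and the difference was -0.91 ± 0.27 (SE, adjusted p = 0.0658). Without that array it was -1.15 and passed (adjusted p = 0.0172), and it also passed without background correction (-0.70, adjusted p = 0.0495), with an offset of 50 (0.0338) and with an intensity trend (0.0312). Ugt2b36 read 13.63, 13.70, 13.54 and 13.60 against 14.11, 13.76, 13.93 and 14.02. Its groups lay apart by a narrow margin, and its difference of -0.34 ± 0.14 did not pass (adjusted p = 0.178), except without background correction (-0.33, adjusted p = 0.0437). The other Ugt2b36 probe, also above background on every array, differed by -0.15 with overlapping groups. With every kept probe tested by itself it did not pass (adjusted p = 0.599), so the separation rests on the choice of probe. Ugt2b34 differed by -0.61 ± 0.27 (adjusted p = 0.206) and Ugt2b1 by -0.46 ± 0.30 (adjusted p = 0.4), both with overlapping groups.

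Subfamilies 1 and 3 gave no call. The isoforms of Ugt1a are known to arise from alternative first exons spliced to common later exons, so a probe in a common exon would read all of them. The Ugt1a10 probe read 12.45, 12.58, 12.47 and 12.50 on Cic-L-/- arrays and 12.45, 12.31, 12.28 and 12.17 on wildtype arrays. The values met at the edge, and the difference was 0.20 ± 0.13 (SE, adjusted p = 0.426, 95% interval -0.10 to 0.49). Ugt1a6a, whose human counterpart conjugates planar phenols, differed by -0.06 (interval -0.42 to 0.30). The Ugt3a genes, whose human forms take sugars other than glucuronic acid, had opposite signs. Ugt3a1 read 9.86, 10.14, 9.51 and 9.32 against 9.22, 9.07, 9.44 and 9.33, a difference of 0.44 ± 0.19 with overlap (adjusted p = 0.197). Ugt3a2 read 12.90, 12.94, 12.90 and 13.03 against 13.16, 13.11, 13.17 and 13.29, a difference of -0.24 ± 0.13 without overlap (adjusted p = 0.298).

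**Figure D2:**
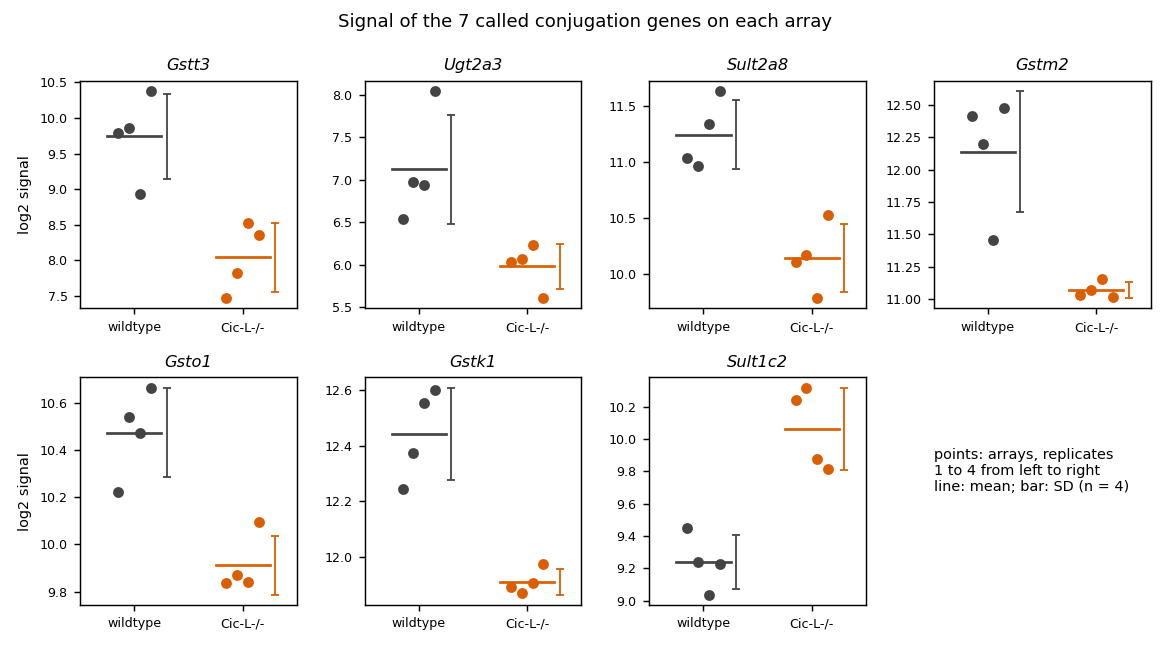
Log2 signal (normexp-corrected, quantile-normalised) of the 7 called conjugation genes on each of the 8 arrays, with group means as lines and SD as bars beside the points (n = 4). The vertical axis differs between panels; in every panel the wildtype and Cic-L-/- points are separate, and wildtype replicate 3 is the lowest wildtype point for Gstt3 (8.94) and Gstm2 (11.46).

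Most members lie in tandem clusters. In the gene order of RefSeq (assembly GRCm38.p6), which was used for order only, the 47 genes fell into 17 loci when members with up to 5 other protein-coding genes between them were joined, and 10 loci held more than 1 member. The largest, on chromosome 5, held 13 genes: 10 of Ugt2, followed by Sult1b1, Sult1d1 and Sult1e1. All 6 of its tested genes had negative differences (median -0.53), with 1 called; Sult1d1 at its far end kept that sign with 1 of its 2 probes. Over all tested features 49.6% had a negative difference. On chromosome 3, Gstm2 fell. Its next neighbours in the row were Gstm1 on one side and Gstm6, beyond the untested Gstm3, on the other. They differed by -0.07 and 0.24, though the other kept Gstm6 probe differed by -0.38. On chromosome 10 the differences along the row were -1.70 for Gstt3, -0.56 for Gstt1 and 0.47 for Gstt2. Differences between neighbouring genes were not tested against each other, and the members of a cluster are related in sequence.

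**Figure D3:**
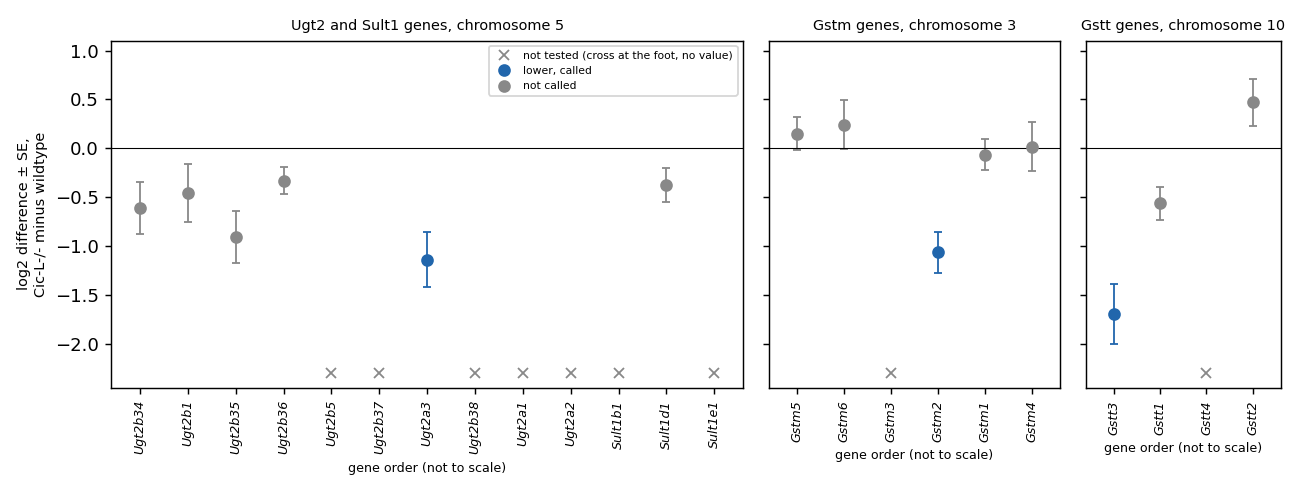
Log2 difference ± SE (Cic-L-/- minus wildtype, n = 4 per group) of members of 3 tandem clusters, placed in gene order and not to scale; crosses at the foot mark genes that were not above background on at least 4 arrays and have no tested value. The 6 tested genes on chromosome 5 lie between -1.14 and -0.34, while on chromosomes 3 and 10 the genes beside Gstm2 and Gstt3 lie closer to or above 0.

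Promoter windows of 300 bases were found for 43 of the 47 genes (52 windows), among them all 7 called ones. Both strands were searched, and a match describes letters only. For capicua only the octamers TGAATGAA and TCAATGAA were searched. They were in 0 of the 52 windows, and 1.3% and 0.749% of all 32851 windows hold them. Other forms of the capicua site were not searched, so the members may hold such forms. The antioxidant response core TGACNNNGC was in 2 of the 52 windows, those of Gsta3 and Gstm5 (12.4% of all windows). The HNF1 core GTTAAT was in 8 of the 52 windows (7.1% of all windows), from 8 genes, of which Ugt2a3 was called. The nuclear receptor core AGGTCA was in 10 of the 52 windows (16.3% of all windows), from 10 genes, of which Gstk1 and Sult2a8 were called. Another 5 of these 10 were Ugt2b genes: Ugt2b5, Ugt2b35, Ugt2b36, Ugt2b37 and Ugt2b38.

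Agreement between probes could be checked for 7 members with more than 1 kept probe. In 3 of them, Gstm2, Ugt1a6a and Ugt2b36, all kept probes had the same sign. In the other 4 the signs differed: from -0.02 to 0.01 for Gsta3, from -0.38 to 0.24 for Gstm6, from -0.02 to 0.64 for Gstp1 and from -0.38 to 0.10 for Sult1d1. The 2 Gstp1 probes above background on all 8 arrays differed by 0.64 and 0.46, and the third, above it on 5 arrays, by -0.02. Each of the called genes other than Gstm2 rests on 1 kept probe.

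**Figure D4:**
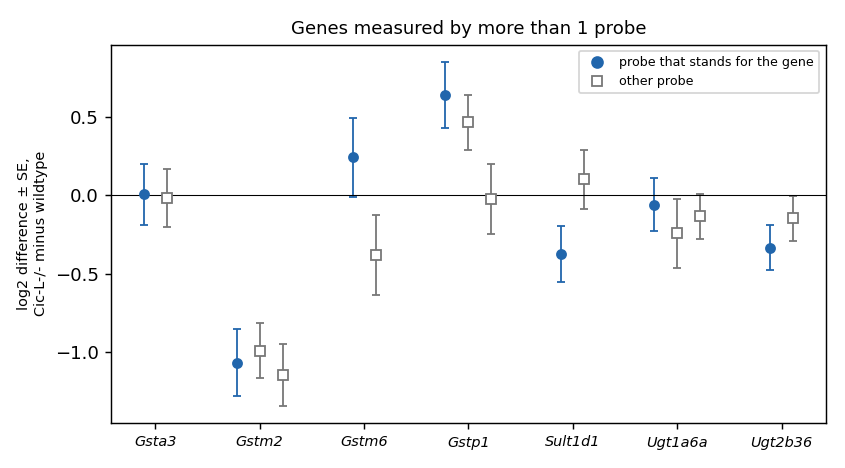
Log2 difference ± SE (Cic-L-/- minus wildtype, n = 4 per group) of every kept probe of the 7 members with more than 1; filled circles mark the probe that stands for the gene and open squares the others. The 3 Gstm2 probes lie between -1.14 and -0.99, while the probes of Gsta3, Gstm6, Gstp1 and Sult1d1 lie on both sides of 0.

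The other 18 members were not tested. Of these, 13 were above background on no array: Gsta1, Gsto2, Gstt4, Sult1c1, Sult2b1, Sult3a1, Sult4a1, Ugt1a2, Ugt2a1, Ugt2a2, Ugt2b5, Ugt2b37 and Ugt2b38. The remaining 5 were above it on at most 3 arrays: Gstm3 and Gstp2 on 3, Sult1b1 and Sult5a1 on 2, and Sult1e1, the estrogen sulfotransferase, on 1. Over the 24 probes of these genes the differences ran from -0.32 to 0.09, and with every probe on the array tested none passed (lowest adjusted p = 0.47; 1.88% of 25697 probes passed). For 0 of these probes did the groups lie apart. A probe at background gives no level, so these values say nothing about a difference in the RNA.

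Genes that work beside these families were compared through lists of other transferases and epoxide hydrolases, cofactor supply, regulators and efflux pumps, which were chosen with earlier results of these data known. Of the 47 different genes tested, 1 rose and 3 fell, a share close to the 7.39% called over all features. Among 4 tested microsomal and other glutathione transferases, Mgst2, which can make leukotriene C4, was 1.91-fold higher (6.68 ± 0.22 in Cic-L-/- and 5.75 ± 0.18 in wildtype, SD, n = 4, adjusted p = 0.00606 by limma). Without background correction its log2 difference was 0.37 in place of 0.93, and it was still called. Mgst3 (0.46, adjusted p = 0.135), Mgst1 (-0.15, adjusted p = 0.63) and Gstz1 (-0.05, adjusted p = 0.873) did not pass, except Mgst3 with median centring (0.65, adjusted p = 0.0365). Among 12 tested genes for acyl and methyl transfer, acyl-CoA formation and epoxide hydrolysis, Nnmt (nicotinamide methylation), Baat (bile acid conjugation to amino acids) and Ephx1 (microsomal epoxide hydrolase, which adds water and conjugates nothing) fell. Their log2 differences were -3.23 ± 0.22, -1.70 ± 0.16 and -0.60 ± 0.16 (SE), with adjusted p = 7.25e-06, 8.99e-05 and 0.0476. The Ephx1 call ended under 12 of its 21 alternatives (highest adjusted p = 0.125), among them leaving out any 1 array but Cic-L-/- replicate 4. Acsm5 (-0.57, adjusted p = 0.0961) and Acsm3 (0.40, adjusted p = 0.158) came next and did not pass, except without Cic-L-/- replicate 4 (-0.70, adjusted p = 0.0403, and 0.52, adjusted p = 0.0485).

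No gene of the 4 remaining lists passed by limma, and at an unadjusted p under 0.05 there were 1 of 12, 2 of 8, 1 of 9 and 0 of 3 in the order in which the lists follow, each against 22.5% of all features. Of 12 tested genes for cofactor supply and hydrolysis, which include Ugp2 (UDP-glucose), Papss1 and Papss2 (activated sulfate) and Gclc, Gclm and Gss (glutathione), the smallest adjusted p were those of Arsb (0.46, adjusted p = 0.0998) and Gclm (0.35, adjusted p = 0.223). Arsb passed without background correction (0.37, adjusted p = 0.0405). Of 8 tested NRF2 targets, the nearest were Akr1b8 (0.54, adjusted p = 0.149) and Cbr1 (0.47, adjusted p = 0.217). The Akr1b8 probe was above background on 3 Cic-L-/- arrays and 1 wildtype array, so it passed the filter mainly through the higher group. The classical target Nqo1 differed by -0.20 (adjusted p = 0.612). Of 9 tested regulators, Nfe2l2, which encodes NRF2, differed by -0.52 ± 0.20 (adjusted p = 0.139), with the highest Cic-L-/- array and the lowest wildtype array both at 6.05. Its difference was -0.17 without background correction and -0.31 with median centring (adjusted p = 0.0751 to 0.454 over its alternatives). The bile acid receptor Nr1h4 differed by -0.41 ± 0.19 (adjusted p = 0.239). Nr1i3, which encodes CAR, differed by -0.10 ± 0.19 (adjusted p = 0.803) and Nr1i2, which encodes PXR, by 0.13 ± 0.22 (adjusted p = 0.773). Of 3 tested efflux pumps of conjugates, Abcc2 differed by -0.37 (adjusted p = 0.257) and Abcc6 by 0.21 (adjusted p = 0.437). Ugdh, which makes UDP-glucuronic acid, and Ahr were not above background on enough arrays to be tested.

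Probes of Cic and of cell type markers were read on the same arrays. The single Cic probe was above background on no array (log2 difference -0.23 ± 0.12 SE), and the part of the RNA that it reads is unknown, so it checks nothing about the genotype. The label liver was checked with 6 hepatocyte markers: Apoa1, Ttr, Serpina1a and Hnf4a were above background on all 8 arrays, the Alb probe on 7 and Tat on 0. Of the 5 tested, 0 passed, and the summed signal of all 6 was 59440 to 65615 in Cic-L-/- and 48914 to 56440 in wildtype samples, without overlap. Apoa1 and Ttr made up most of that sum and differed by 0.19 and 0.54. Serpina1a differed by 0.01, Hnf4a by -0.24 and Alb by -0.68 (median of the 5, 0.01). The Alb probe read only 5.33 in Cic-L-/- and 6.01 in wildtype samples, near background, so it says little about albumin RNA. Of 4 tested Kupffer and macrophage markers, 2 were called higher in Cic-L-/- liver (Adgre1 and Marco), against 4.49% of all features. The Marco probe was above background on 4 Cic-L-/- arrays and 1 wildtype array, so it passed the filter through the higher group. Clec4f (0.25, adjusted p = 0.308) and Vsig4 (0.54, adjusted p = 0.255) did not pass by limma. The summed signal of the 5 on the array was 2621 to 5329 in Cic-L-/- and 2038 to 2418 in wildtype samples. Of 2 tested lymphocyte markers Cd79a was higher and Ms4a1 differed by 0.04 (adjusted p = 0.932 by limma). The summed lymphocyte signals overlapped (172 to 251 in Cic-L-/- against 139 to 175 in wildtype samples). Of the gut markers the 1 tested, Lgals4, was higher (summed signal 311 to 331 against 184 to 267), with Cdx2, Fabp2 and Vil1 above background on no array. No tested endothelial, stellate, erythroid or pancreas marker passed, and no cholangiocyte or kidney marker could be tested. The part of these cell types in the conjugation genes was not tested, and in whole liver fewer cells of a type and less RNA per cell cannot be told apart.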

How the data were processed

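Per the labels, total liver RNA of 8 samples was labelled with Cy3 by the array maker's protocol and hybridised to Illumina bead arrays, 1 per sample. The deposited intensity table holds linear signals, which differ in distribution from array to array, so the authors made it without between-array normalisation (26821 rows, of which 25697 carry a probe ID). The deposited log2 table equals log2 of that intensity after quantile normalisation to within 5e-05, and the series matrix equals it. The sources used here name neither scanner nor software. Array medians were 123.5 to 152.8, and 38.7% to 43.5% of probes exceeded background.

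The intensity was corrected with normexp on the 1124 rows without a probe ID, read from their values as negative controls (limma 3.58.1, R 4.3.3, offset 16), then log2-transformed and quantile-normalised. Probes with a detection p under 0.05, the share of control rows at least as bright, on at least 4 arrays were kept (10300). A gene was its kept probe with the highest mean, giving 8255 features. These were tested with limma (lmFit, eBayes, two-sided, no covariate) with Benjamini-Hochberg adjustment and a feature counted as called below 0.05. Folds refer to the offset log2 scale, which understates changes of dim probes, and signals of different probes cannot be set against each other. The number of arrays limits the precision. Names came from the platform annotation (47 of 47 member IDs were found in RefSeq, 0 renamed).

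Values per array are given for called members, members with an absolute log2 difference of at least 1, the brightest tested member of each subfamily and the 5 uncalled members with the smallest adjusted p. From each related list the called genes and up to 2 next genes are named, with Cic, Nfe2l2, Nr1i3, Nr1i2 and Ahr, and further members to account for all. Gstz1, Nqo1 and the genes named without a value were added to describe lists. Members and lists were chosen with earlier results of these data known. The labels do not say that equal replicate numbers pair samples. Deviations from group means correlated by -0.03 to 0.05 between samples of equal number, which does not settle whether they were paired.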

Additional observations from a re-analysis of the deposited data

Results flagged for a closer look

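Among 94 groups of 4 samples (47 genes), 6 held 1 sample far from the other 3 (Dixon's gap test at its 95% level, where chance flags about 1 in 20 groups). In Cic-L-/- liver, replicate 4 was high for Gsto1 (10.1, others 9.84 to 9.87) and for Gstp3 (11.69, others 11.08 to 11.17). It was low for the acyl-CoA synthetase gene Acsm3 (11.07, others 11.52 to 11.59). Cic-L-/- replicate 2 was low for Sult1a1 (13.06, others 13.29 to 13.33). In wildtype liver, replicate 3 was low for Sult1a1 (12.87, others 12.99 to 13.01) and replicate 2 for Nnmt (9.38, others 9.73 to 9.75).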

How the results depend on the processing

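Across 21 alternatives for each of the 17 named members, 307 of 357 values kept direction and side of the threshold. Another 28 lost a call, 16 gained one and 6 changed sign. No background correction and the deposited log2 table gave equal results, so these counts hold that fit under both names. All 6 sign changes were those of Gsta3, whose difference lies at 0: -0.01 with the mean of a gene's probes, -0.03 with array weights, and -0.09 to 0.11 on leaving out 1 array (below 0 when Cic-L-/- replicates 1 and 4 and wildtype replicates 2 and 4 were the one removed). Mgst1 turned to 0.10 with the mean of its probes, Nr1i3 to 0.14 with median centring, Nr1i3 ran from -0.22 to 0.03 on leaving out 1 array (above 0 without wildtype replicate 4), and Nr1i2 from -0.08 to 0.23 (below 0 without Cic-L-/- replicate 2). With the replicate block, 4 members were called (3 lower), with 0 Ugt and 2 Gst genes. Called Gst genes numbered 2 with median centring and 2 with every probe tested by itself. Called Ugt genes numbered 2 without background correction, in the deposited log2 table, with an offset of 50 and with an intensity trend, and 0 without a detection filter. Higher members numbered 2 with an intensity trend or array weights. The Ugt median was -0.182 with median centring, -0.101 without a filter and -0.243 with every probe or with probe means. The Sult median was 0.327 and -0.012 under the first 2 of these. The Gst median was 0.073 with median centring and -0.066 with probe means. The median over members was 0.072, 0.003, -0.135 and -0.138 with median centring, no filter, every probe and probe means. Leaving out 1 array in turn gave 4 to 7 called members (3 to 6 lower, 1 to 2 higher), 2 to 5 Gst, 2 to 2 Sult and 0 to 1 Ugt genes, 3 to 6 related genes and 341 to 612 features, with medians of -0.198 to -0.074 over members, -0.394 to -0.243 for Ugt, -0.009 to 0.229 for Sult and -0.08 to 0.069 for Gst. The causes were not tested. Signals near background limit what can be read from Ugt2a3, Gsta2, Gstm4 and the untested members.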
